A study of Homo sapiens with 16 samples.

Results

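Genes of DNA double-strand break signalling and repair were followed after irradiation of A549, a long-established line of human lung adenocarcinoma cells. The set was a list of 43 genes chosen by name, and all array features annotated to a gene were averaged. It gave 39 measured genes of the 18334 named genes on the arrays, from 111 features. They comprised 7 genes of classical end joining, 12 of recombination, 4 of end resection and 14 of break signalling. FANCI, of crosslink repair, and POLQ, of alternative end joining, stood alone in their classes. BRCA2, RBBP8, FANCD2 and FANCA had no feature with that symbol alone and were not analysed here.

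Cells were sampled 4h or 1h after carbon ions, labelled C12, or after X-rays, which gave 4 groups of 4 arrays: C12 4h, C12 1h, X-ray 4h and X-ray 1h. Each array compared an irradiated culture with its unirradiated control, which shared the radiation label and the time, in Cy3 and Cy5 with the dyes swapped between arrays. The X-rays were photons of a clinical linear accelerator, and the carbon ions came from a raster-scanned beam with a spread-out Bragg peak. The labels name no engineered allele. Each labelled RNA was a pool of 2 independent experiments, so a replicate array is not shown to be a separate culture, and p-values measure only the spread between these arrays, which may be technical. No source used here states the dose of these samples, so C12 and X-rays cannot be compared at equal dose. A549 is a single line, and ratios hold no expression level, so its identity could not be checked against marker levels.

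A double-strand break is sensed by the MRE11-RAD50-NBN complex and by the Ku heterodimer, and the kinases ATM, ATR and DNA-PK pass the signal to chromatin and to checkpoint kinases. End joining ligates the ends directly, whereas recombination copies the sister chromatid after the ends have been resected, and is therefore largely limited to S and G2 phase. Much of the immediate response is known to act through phosphorylation and ubiquitylation of proteins already present, which transcript ratios do not measure.

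All values below are log2 ratios, and a positive value is the likely direction of irradiated over control. The sign could not be settled from the labels. C12 arrays of the same labelled dye orientation correlated, as deposited, with r from -0.869 to 0.853 over all features (median -0.831). The sign of replicates 1 and 2 of each group was turned, a reading chosen with values in view. With the inverse sign every value changes its sign and the median at X-ray 4h is 0.09 in place of -0.09, with the same tests. CDKN1A, a p53 target that encodes a cell cycle inhibitor and served as direction control, had turned ratios of 0.92, 1.65, 0.51 and 1.41 in replicates 1 to 4 of C12 4h, and 2.09, 1.10, 1.29 and 1.32 in those of X-ray 4h. In C12 1h it had -0.35, 0.63, -0.46 and 0.43, and in X-ray 1h 1.19, 0.91, 1.04 and 0.96. Such genes entered the choice of sign in the X-ray groups, so their direction there is no evidence.

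The arrays differed in residual spread on the deposited scale. The residual standard deviation over all genes was 0.127 for C12 and 0.295 for X-rays. X-ray 4h replicate 2 had the highest of the 16 arrays, at 0.39, and the X-ray 4h estimates and counts are given with it first and without it later. Among the 39 genes a dye coefficient, the part of the ratio that alternates with the dye of the irradiated sample, had a median size of 0.221 after C12 and 0.0857 after X-rays. None of the 7 stromal and endothelial, 4 leukocyte or 6 lung epithelial marker genes measured passed the test in any of the 4 groups.

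**Figure D1:**
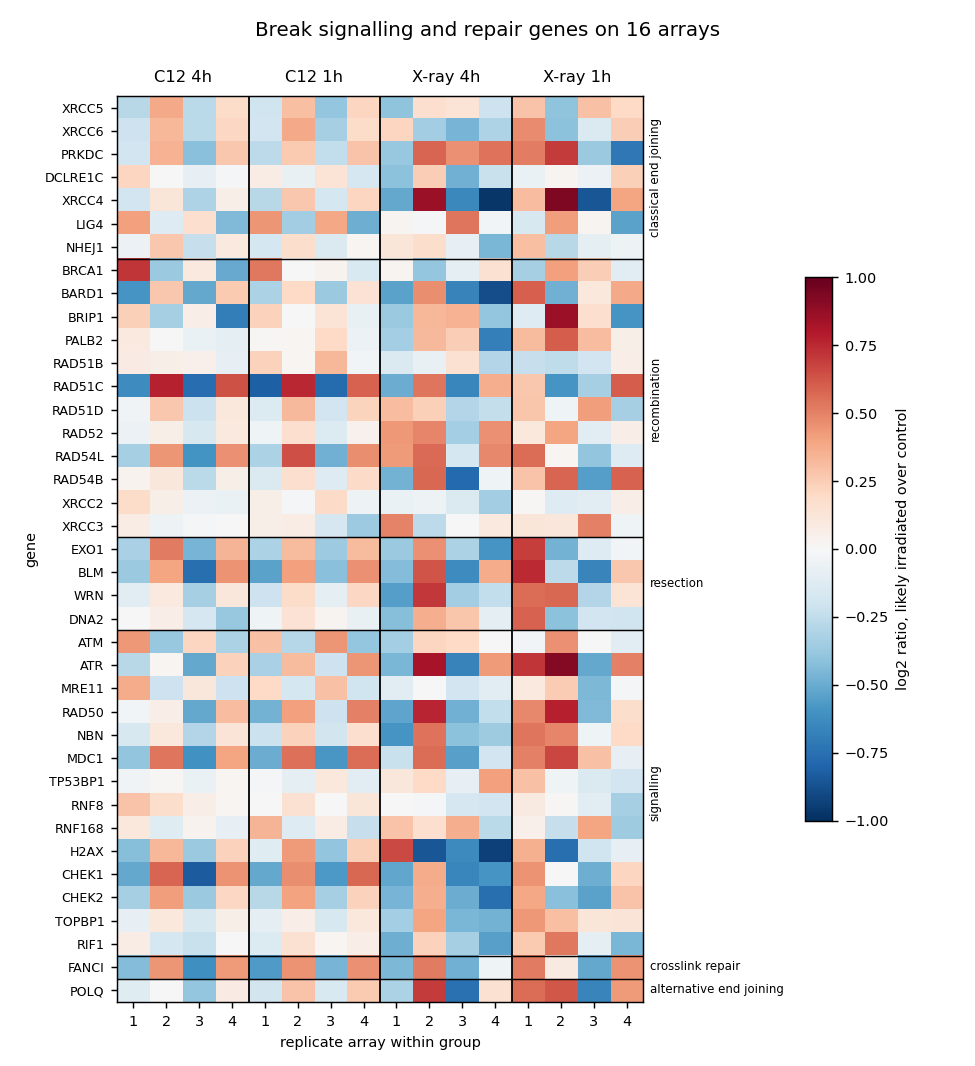
Log2 ratio (likely irradiated over control) of each of the 39 genes, in rows ordered by repair class, on each of the 16 arrays in columns, with the C12 groups left of the X-ray groups and replicates in label order. On C12 arrays the colours alternate with the labelled dye, and in 15 of the 39 rows X-ray 4h replicate 2 is above 0 where replicates 1, 3 and 4 are all below.

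At 4h after X-rays, 0 of the 39 genes passed limma's test at an adjusted p under 0.05, against 0.267% of all genes tested. At an unadjusted p under 0.05 it was 1 gene, H2AX, against 4.56% of all genes. The estimates were below 0 for 28 of 39 genes, against 9118 of all 18334 genes, with a median of -0.09, against 0.00 over all genes. The other fits with all 16 arrays under the same sign called 0 of the 39 as well, except the fit with 1 weight per array, which called 9, all lower, where 6.03% of all genes were called lower. The 95% intervals lay within a 1.5-fold change in either direction for 28 of 39 genes, against 77.4% of all genes, and within a 2-fold change for all 39. These limits hold with X-ray 4h replicate 2: without it they were met by 15 of 39 (57.2% of all genes) and 35 of 39 (95.9%).

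Among the classical end joining genes, XRCC4, the scaffold of ligase IV, had ratios of -0.52, 0.87, -0.64 and -0.97 in X-ray 4h replicates 1 to 4. Replicate 2 alone was above 0, farther from it than replicates 1 and 3 were below. The estimate was -0.32 ± 0.24 (SE, n = 4), with a limma adjusted p of 1. Here and below, the SE of an estimate rests on 1 variance per gene over all arrays in the fit. It is not the spread of the 4 arrays of the group, which for XRCC4 had an SD of 0.81. PRKDC, the catalytic subunit of DNA-PK, had -0.38, 0.58, 0.46 and 0.54, so replicate 1 alone was below 0, and its estimate was 0.30 ± 0.20 (SE, n = 4). XRCC6, the smaller Ku subunit, had 0.21, -0.35, -0.46 and -0.31, with replicate 1 alone above 0 and an estimate of -0.23 ± 0.15. DCLRE1C, the Artemis nuclease, had -0.41, 0.25, -0.48 and -0.23, with replicate 2 alone above 0 and an estimate of -0.22 ± 0.16. The class ran from -0.32 to 0.30 with a median of -0.08, so its genes did not lie on one side of 0.

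In the recombination class, BARD1, the RING partner of BRCA1 in a ubiquitin ligase, had -0.54, 0.46, -0.67 and -0.89 in X-ray 4h replicates 1 to 4. Replicate 2 alone was above 0. Its estimate was -0.41 ± 0.20 (SE, n = 4; limma adjusted p = 1), a 0.754-fold level with a 95% interval on the log2 scale of -0.82 to 0.01. RAD54L, a motor protein of strand exchange, had 0.43, 0.56, -0.18 and 0.48, with replicate 3 alone below 0, and an estimate of 0.32 ± 0.17. RAD52, a strand annealing protein, had 0.43, 0.49, -0.34 and 0.46, with the same replicate below 0, and an estimate of 0.26 ± 0.15. BRIP1, the BRCA1-bound helicase, had -0.37, 0.34, 0.34 and -0.39, so its arrays split evenly. The 12 genes ran from -0.41 to 0.32 with a median of -0.07.

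Of the resection genes, EXO1, an exonuclease that extends the resected strand, had -0.37, 0.46, -0.32 and -0.59 in X-ray 4h, with an estimate of -0.21 ± 0.19 (SE, n = 4). WRN, a helicase and exonuclease, had -0.55, 0.70, -0.35 and -0.25, with an estimate of -0.11 ± 0.19. Both genes were above 0 on replicate 2 alone. DNA2, a nuclease and helicase, had -0.43, 0.36, 0.28 and -0.09, and BLM, a RecQ helicase, had -0.43, 0.63, -0.63 and 0.37, so that both had arrays on either side of 0 also without replicate 2. The class median was -0.06.

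Among the signalling genes, H2AX, the histone variant phosphorylated around breaks, had 0.66, -0.85, -0.63 and -0.93 in X-ray 4h replicates 1 to 4, with replicate 1 alone above 0. Its estimate of -0.44 ± 0.20 (SE, n = 4) was the lowest of the 39 genes in this comparison, with an interval of -0.85 to -0.03 and a limma adjusted p of 1. The SD of its 4 ratios was 0.74, and the interval does not rest on that spread alone. CHEK1, the checkpoint kinase downstream of ATR, had -0.52, 0.37, -0.65 and -0.59, and an estimate of -0.34 ± 0.19. CHEK2, the checkpoint kinase downstream of ATM, had -0.46, 0.36, -0.50 and -0.76, and an estimate of -0.34 ± 0.19. Both checkpoint kinases were thus below 0 on replicates 1, 3 and 4 and above 0 on replicate 2. ATR, the kinase recruited to single-stranded DNA, had -0.46, 0.82, -0.67 and 0.43, and RNF8, a ubiquitin ligase at breaks, had 0.00, -0.02, -0.16 and -0.19 (replicate 1 at -0.0019). RNF8 was thus below 0 on every X-ray 4h array, by little, as was XRCC2, a recombination gene, and this held for 2.9% of all genes. The 14 genes ran from -0.44 to 0.16 with a median of -0.11. Outside these classes, FANCI had -0.45, 0.52, -0.48 and -0.05, and POLQ, the polymerase of alternative end joining, had -0.32, 0.70, -0.74 and 0.15, with estimates of -0.11 ± 0.18 and -0.05 ± 0.21.

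**Figure D2:**
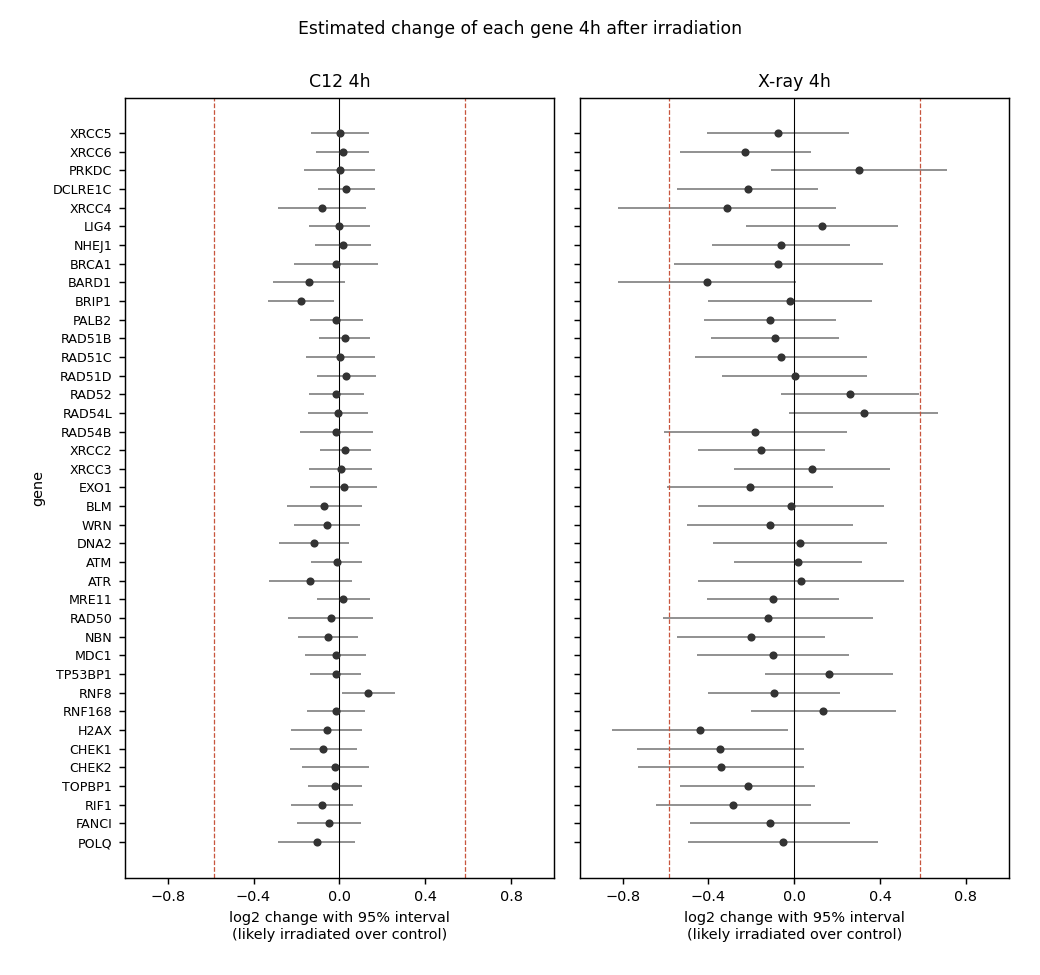
Estimated log2 change (likely irradiated over control, n = 4 arrays per group) of each of the 39 genes at C12 4h and X-ray 4h, with 95% intervals as bars and dashed lines at a 1.5-fold change either way. All 39 C12 intervals and 28 of 39 X-ray intervals lie between the dashed lines.

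The promoters of BARD1, CHEK1, XRCC4 and H2AX are shown because these 4 genes had estimates among the lowest at X-ray 4h, BARD1, CHEK1 and XRCC4 with the same array pattern and H2AX with a different one. They were chosen after their values were seen. Each is the first window listed for the gene in the RefSeq table on GRCh38.p14, from before to just after a transcript start, 5′ to 3′ on the gene's strand. The CHEK1 window lies inside the annotated gene, downstream of its first base, and the other 3 span the first base of their gene. Capitals mark matches on either strand to TTCCCGC or TTGGCGC (E2F forms), TTTGAA (the CHR element) or CCAAT.
BARD1, chr2:214809634-214809933, minus strand: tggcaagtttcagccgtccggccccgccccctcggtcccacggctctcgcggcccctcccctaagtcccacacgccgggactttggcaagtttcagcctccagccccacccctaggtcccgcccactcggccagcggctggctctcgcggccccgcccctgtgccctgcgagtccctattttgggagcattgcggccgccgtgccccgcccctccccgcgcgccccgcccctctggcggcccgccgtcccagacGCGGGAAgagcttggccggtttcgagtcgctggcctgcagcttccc
CHEK1, chr11:125625979-125626278, plus strand: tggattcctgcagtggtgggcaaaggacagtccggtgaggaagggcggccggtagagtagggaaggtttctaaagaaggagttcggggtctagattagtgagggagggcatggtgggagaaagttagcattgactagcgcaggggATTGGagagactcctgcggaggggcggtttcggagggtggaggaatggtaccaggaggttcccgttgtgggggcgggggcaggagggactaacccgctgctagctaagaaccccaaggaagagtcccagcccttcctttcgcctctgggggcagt
XRCC4, chr5:83077297-83077596, plus strand: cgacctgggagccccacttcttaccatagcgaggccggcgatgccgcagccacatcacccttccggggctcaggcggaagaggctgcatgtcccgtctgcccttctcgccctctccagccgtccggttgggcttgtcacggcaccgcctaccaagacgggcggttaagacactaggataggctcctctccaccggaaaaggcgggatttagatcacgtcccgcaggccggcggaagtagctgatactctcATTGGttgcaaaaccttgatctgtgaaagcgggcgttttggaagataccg
H2AX, chr11:119095416-119095715, minus strand: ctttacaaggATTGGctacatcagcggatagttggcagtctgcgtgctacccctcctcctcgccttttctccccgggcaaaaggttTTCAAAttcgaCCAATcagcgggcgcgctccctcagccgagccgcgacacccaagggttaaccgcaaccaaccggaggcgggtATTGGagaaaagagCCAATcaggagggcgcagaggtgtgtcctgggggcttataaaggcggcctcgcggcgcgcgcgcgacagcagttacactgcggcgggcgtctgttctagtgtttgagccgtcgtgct

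Among these, BARD1 held TTCCCGC, read on the opposite strand as GCGGGAA, at position 5 after the start site of its window. CHEK1 and XRCC4 held a CCAAT box each on the opposite strand, and H2AX held 4 CCAAT boxes and 1 CHR match. Promoters were matched for 32 of the 39 genes. TTCCCGC occurred in 9 of these 32 (28.1%), against 6.56% of the promoters of all 27305 genes in the table, and TTGGCGC in 4 (12.5%), against 3.12%. CCAAT occurred in 17 (53.1%), against 35.7%, and TTTGAA in 6 (18.8%), against 15.4%. Either E2F form occurred in 12 (37.5%), against 9.33%. The motifs were searched without regard to overlap, and a match describes the letters in the window only.

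Without X-ray 4h replicate 2 the picture of the X-ray 4h group changed. BARD1 fell by 0.76 ± 0.18 (SE, n = 3), a 0.59-fold level, with a limma adjusted p of 0.0378, and was the only one of the 39 genes to pass. The share of all genes that passed was then 1.43%, and 1.09% passed as lower. The array left out was the only one of its group with BARD1 above 0, and the p-values of this setting do not allow for leaving it out. BARD1, CHEK1, CHEK2, XRCC4 and H2AX were measured by 1 feature each. CHEK1 at -0.65 ± 0.17 and CHEK2 at -0.65 ± 0.17 had limma adjusted p-values of 0.0577 and 0.0573, and XRCC4 at -0.73 ± 0.23 had 0.103. NBN, a sensor subunit with MRE11 and RAD50, had -0.46 ± 0.15 (0.129), and TOPBP1, an activator of ATR, had -0.43 ± 0.14 (0.118). EXO1 had -0.48 ± 0.18, WRN -0.40 ± 0.17 and FANCI -0.41 ± 0.16, and their adjusted p-values were 0.188, 0.284 and 0.216. The median over the 39 genes was -0.28, against 0.01 over all genes, and 30 of 39 estimates were below 0, against 47.9% of all genes. At an unadjusted p under 0.05 there were 13 of 39, against 13.9% of all genes. The shift was not particular to the repair genes: the housekeeping list had a median of -0.32, with 6 of 8 below 0 and 4 of 8 at that limma p. The replication list had a median of -0.20, with 2 of 15 at that p, while the stromal and endothelial list had a median of 0.09. H2AX, which was low on replicate 2 too, had -0.40 ± 0.23. Among the other genes described above, DCLRE1C had -0.39 ± 0.16, XRCC6 -0.28 ± 0.16 and RNF8 -0.12 ± 0.16. BLM had -0.37 ± 0.19, DNA2 -0.10 ± 0.21, ATR -0.32 ± 0.23 and POLQ -0.40 ± 0.20, all lower than with replicate 2. PRKDC had 0.26 ± 0.23, RAD54L 0.16 ± 0.17 and RAD52 0.14 ± 0.16, all still above 0, and BRIP1 was at 0.00 ± 0.20 (SE, n = 3 for each; none passed).

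**Figure D3:**
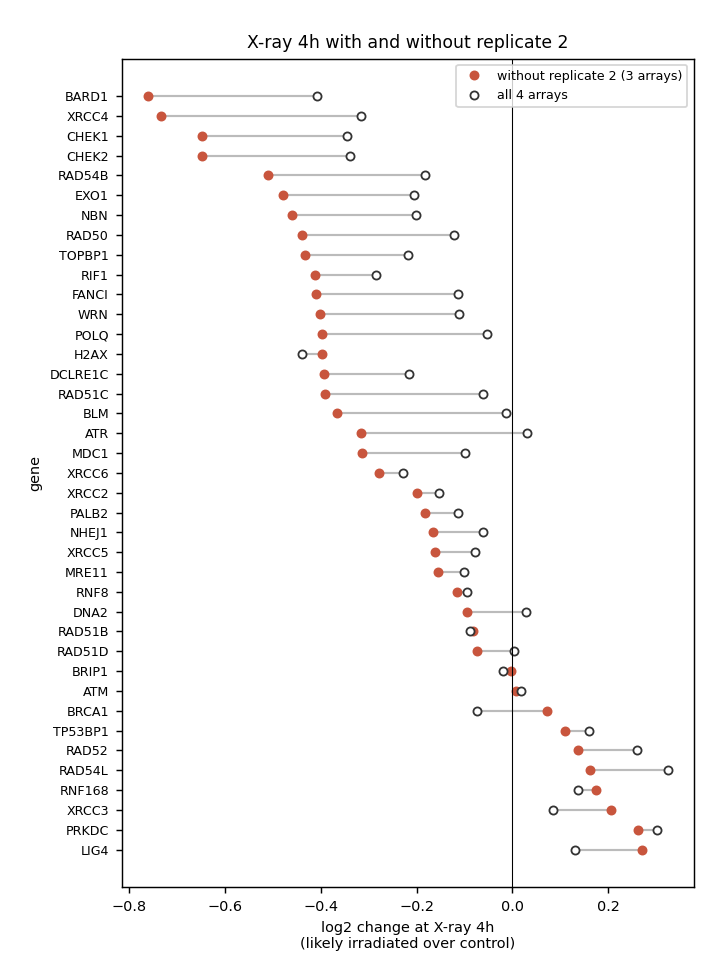
Estimated log2 change at X-ray 4h (likely irradiated over control) of each of the 39 genes with all 4 arrays (open circles) and without replicate 2 (filled circles), sorted by the filled circles. Most genes with a low estimate lie further below 0 without that array, BARD1 lowest at -0.76, while H2AX, ATM and BRIP1 hardly move.

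The 4 X-ray 4h arrays show this directly. The median over the 39 genes was -0.34, 0.36, -0.34 and -0.23 on replicates 1 to 4 (replicate 3 at -0.3346), against 0.07, 0.10, -0.06 and -0.06 over all genes. On replicates 1, 3 and 4 together, 17 of 39 genes were below 0, against 17.8% of all genes, and 15 of these were above 0 on replicate 2, against 14.9% of all genes. By class the 17 genes were 9 of 14 signalling genes, 3 of 12 recombination genes, 2 of 7 end joining genes, 2 of 4 resection genes and FANCI. The p53 target list, of 10 genes, had medians of 0.98, 0.83, 1.15 and 1.13 on the same arrays. Such genes entered the choice of sign, so their being above 0 on replicate 2 is no evidence for the direction of that array. The replication list, of 15 genes, had medians of 0.34, 0.43, -0.56 and -0.12, and the housekeeping list, of 8 genes, 0.08, 0.39, -0.47 and -0.26, both highest on replicate 2. The part of these shifts in the results was not tested.

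Genes with many features show how far single features agreed on an array. All features of RAD54B, EXO1, WRN and RAD50 were annotated to 1 sequence record per gene, so their closeness is not agreement of independent targets. The 10 features of RAD54B, a motor protein related to RAD54L, had medians of -0.47, 0.59, -0.78 and -0.03 on X-ray 4h replicates 1 to 4, with standard deviations over features of 0.031, 0.081, 0.039 and 0.361. On replicates 1 to 3 all of them lay close together, and on replicate 4 they spread from -0.67 to 0.50. EXO1 had standard deviations of 0.027, 0.051, 0.052 and 0.187 over its 10 features, and WRN 0.031, 0.072, 0.089 and 0.319. Replicate 4 was again the most variable for both. RAD50, the coiled-coil partner of MRE11, had its largest spread on replicate 3 (0.415), where a single feature lay at 0.76 against a median of -0.60. ATM, measured by 12 features of 2 accessions, spread on every array (0.143 to 0.281).

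**Figure D4:**
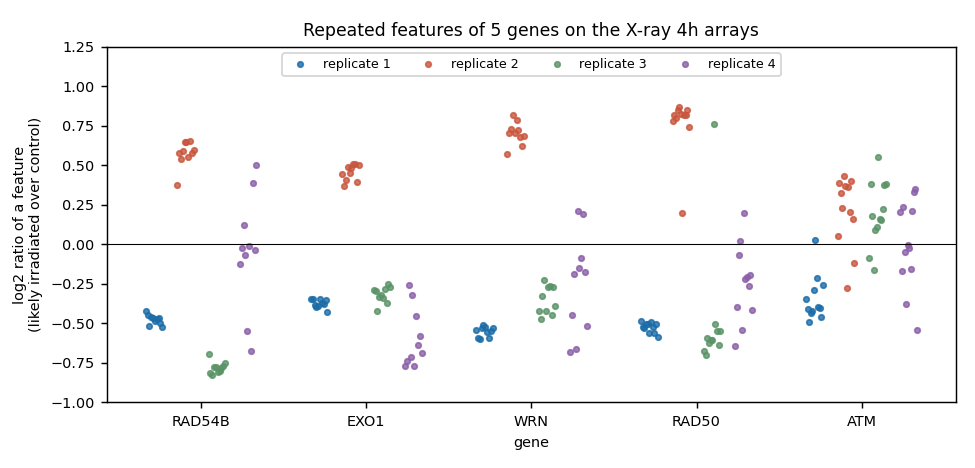
Log2 ratio (likely irradiated over control) of each feature of RAD54B, EXO1, WRN, ATM and RAD50 on the 4 X-ray 4h arrays, 1 point per feature, coloured by replicate. Features of RAD54B, EXO1 and WRN lie close together above 0 on replicate 2 and below 0 on replicates 1 and 3, and spread on replicate 4.

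At 1h after X-rays, 0 of the 39 genes passed limma's test, against 0.0327% of all genes, and 1 gene had an unadjusted p under 0.05, against 1.46%. That gene was PALB2, which bridges BRCA1 and BRCA2, with 0.32, 0.60, 0.31 and 0.06 in X-ray 1h replicates 1 to 4. All were above 0, as they also were for TOPBP1 (0.12 to 0.43), and this held for 3.58% of all genes. PALB2 had an estimate of 0.32 ± 0.15 (SE, n = 4; limma adjusted p = 1). ATR had the highest estimate, at 0.41 ± 0.23, from 0.72, 0.92, -0.51 and 0.50. MDC1, which binds phosphorylated H2AX, followed at 0.35 ± 0.17, from 0.51, 0.67, 0.29 and -0.08. ATR and MDC1 thus had 1 array each below 0. The median over the 39 genes was 0.05, against 0.00 over all genes, with 12 of 39 below 0, against 9025 of all 18334 genes. The array medians of 0.31, 0.09, -0.13 and 0.06 had mixed signs, and the intervals stayed within a 1.5-fold change for 30 of 39 genes, against 83.3% of all genes. Without X-ray 1h replicate 3, 8 of 39 genes had an unadjusted p under 0.05, against 4.03% of all genes, with a median of 0.13 and 0 passing the adjusted test.

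At 4h after carbon ions, 0 of the 39 genes passed limma's test, against 0.0873% of all genes, and 2 had an unadjusted p under 0.05, against 5.48%. BRIP1 had 0.24, -0.33, 0.07 and -0.69 in C12 4h replicates 1 to 4, so replicates 1 and 3 were above 0 and replicates 2 and 4 below. Its estimate was -0.18 ± 0.07 (SE, n = 4; limma adjusted p = 0.769). RNF8 had 0.29, 0.17, 0.06 and 0.02, all above 0, which held for 0.518% of all genes. Its estimate was 0.13 ± 0.06 (SE, n = 4; limma adjusted p = 0.833). Its 2 features disagreed, with means of 0.28 and -0.01 over the C12 4h arrays, so the sign rests on 1 of them. All 39 intervals lay within a 1.5-fold change, between -0.33 and 0.26 on the log2 scale, against 99.7% of all genes. On the deposited scale the C12 intervals were thus narrower than the X-ray ones. The median distance from the estimate to the end of the interval was 0.145, against 0.36. Every array had an SD of 0.4142 or 0.4143. Over all genes the dye coefficient had a median size of 0.329 after C12 and 0.102 after X-rays. Whether the same log2 size stands for the same change after both was not tested. The narrower intervals are therefore not shown to be a tighter bound on the change in the cells.

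Among the other C12 4h estimates, BARD1 had -0.59, 0.27, -0.51 and 0.26, and an estimate of -0.14 ± 0.08. ATR had -0.28, 0.02, -0.51 and 0.23, and an estimate of -0.13 ± 0.09. DNA2 had 0.00, 0.07, -0.16 and -0.38 (replicate 1 just below 0), and an estimate of -0.12 ± 0.08. In BARD1 and ATR the sign alternated between replicates, as the labelled dye does. The same alternation was seen in others: XRCC4 had -0.19, 0.12, -0.31 and 0.06, BLM -0.37, 0.40, -0.75 and 0.45, and FANCI -0.44, 0.44, -0.61 and 0.42. RAD51C, a recombination gene, had the largest such swing, with a dye coefficient of 0.715. The estimates, which average over both orientations, were -0.08 ± 0.10 for XRCC4, -0.07 ± 0.08 for BLM and -0.05 ± 0.07 for FANCI. POLQ had -0.12, 0.00, -0.39 and 0.09, and an estimate of -0.11 ± 0.09, while DCLRE1C had 0.22, 0.01, -0.08 and -0.01, and an estimate of 0.03 ± 0.06. The median over the 39 genes was -0.01, against 0.00 over all genes.

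At 1h after carbon ions, 0 of the 39 genes passed limma's test, against 0% of all genes, and 1 had an unadjusted p under 0.05, against 4.58%. This was RAD51B, also of the recombination class, with 0.23, 0.02, 0.33 and -0.03 in C12 1h replicates 1 to 4. Replicates 1 and 3 were high and the others near 0, and the estimate was 0.14 ± 0.06 (SE, n = 4; limma adjusted p = 0.875). Its 2 features disagreed, with means of 0.29 and -0.02 over the C12 1h arrays. RNF8 was again above 0 on every array, at 0.00 to 0.15, which held for 0.595% of all genes, again with 1 feature above 0 (mean 0.16) and 1 below (mean -0.02). The 39 estimates had a median of 0.01, against 0.00 over all genes, and all intervals lay within a 1.5-fold change, between -0.25 and 0.30.

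The difference between C12 and X-rays was tested in the same fit, on the deposited scale, on which all arrays had nearly the same spread. At 4h, 0 of the 39 genes passed limma's test for C12 minus X-ray, against 0% of all genes, and 0 had an unadjusted p under 0.05, against 2.99%. The largest differences were 0.38 ± 0.21 for H2AX, 0.32 ± 0.20 for CHEK2, -0.33 ± 0.18 for RAD54L and -0.30 ± 0.21 for PRKDC. The intervals lay within a 1.5-fold difference for 24 of 39 genes, against 69.6% of all genes, and within a 2-fold difference for all 39. Without X-ray 4h replicate 2, 0 of the 39 genes passed, against 0% of all genes, and the smallest limma adjusted p was 0.181, for CHEK2 at 0.63 ± 0.18. In that setting 11 of 39 had an unadjusted p under 0.05, against 11.4% of all genes, the median was 0.25, against 0.08 with that array, and the intervals lay within 1.5-fold for 12 of 39 (50.4% of all genes) and within 2-fold for 36 of 39. The housekeeping list then had a median of 0.29, with 4 of 8 at an unadjusted limma p under 0.05, and the replication list 0.19, with 2 of 15. At 1h, 0 of the 39 passed, against 0% of all genes, and 0 had an unadjusted p under 0.05, against 1.52%. The differences there ran from -0.35 for ATR to 0.29 for RAD51B. Without X-ray 1h replicate 3, 7 of 39 had an unadjusted p under 0.05, against 3.64% of all genes. These p-values do not show that the radiations acted alike.

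Between the times, 0 of the 39 genes passed limma's test for X-ray 4h minus X-ray 1h, against 0% of all genes, and 2 had an unadjusted p under 0.05, against 2.15%. These were NBN at -0.50 ± 0.24 and TOPBP1 at -0.46 ± 0.21. BARD1 had the largest difference, -0.56 ± 0.28, and XRCC4 had -0.51 ± 0.35. Without X-ray 4h replicate 2 they were -0.76 ± 0.20 for NBN, -0.68 ± 0.18 for TOPBP1, -0.91 ± 0.23 for BARD1 and -0.93 ± 0.30 for XRCC4, none with an adjusted p under 0.05, against 0.0109% of all genes. The smallest limma adjusted p was then 0.104, for BARD1, and 15 of 39 had an unadjusted p under 0.05, against 11.1% of all genes. The same count was 2 of 8 in the housekeeping list and 2 of 15 in the replication list. Without X-ray 1h replicate 3 the count for the repair genes was 8 of 39, against 4.51% of all genes. For C12 4h minus C12 1h, 0 of the 39 passed, against 0.0164% of all genes, and 1 had an unadjusted p under 0.05, against 4.13%. This was BRIP1 at -0.25 ± 0.10. The intervals lay within a 1.5-fold difference for all 39 genes after C12 (99% of all genes) and for 7 of 39 after X-rays (28.9%), or 8 of 39 without X-ray 4h replicate 2 (22.4%).

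End joining, recombination and signalling were set against each other by their class medians on each array. At X-ray 4h the median of recombination minus that of signalling was 0.24, 0.03, 0.27 and 0.12 on replicates 1 to 4, with a mean of 0.16 ± 0.11 (SD, n = 4). It was above 0 on all 4 arrays, replicate 2 included, but little above on that one. In the other 11 of the 12 class differences over the 4 groups the arrays had mixed signs, and for end joining minus recombination at X-ray 4h the mean was -0.11 ± 0.15 (SD, n = 4). No p is given for these differences, since the genes were chosen by name with earlier results known. Without X-ray 4h replicate 2, the class medians of the estimates were -0.17 for end joining, -0.08 for recombination, -0.38 for resection and -0.36 for signalling.

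**Figure D5:**
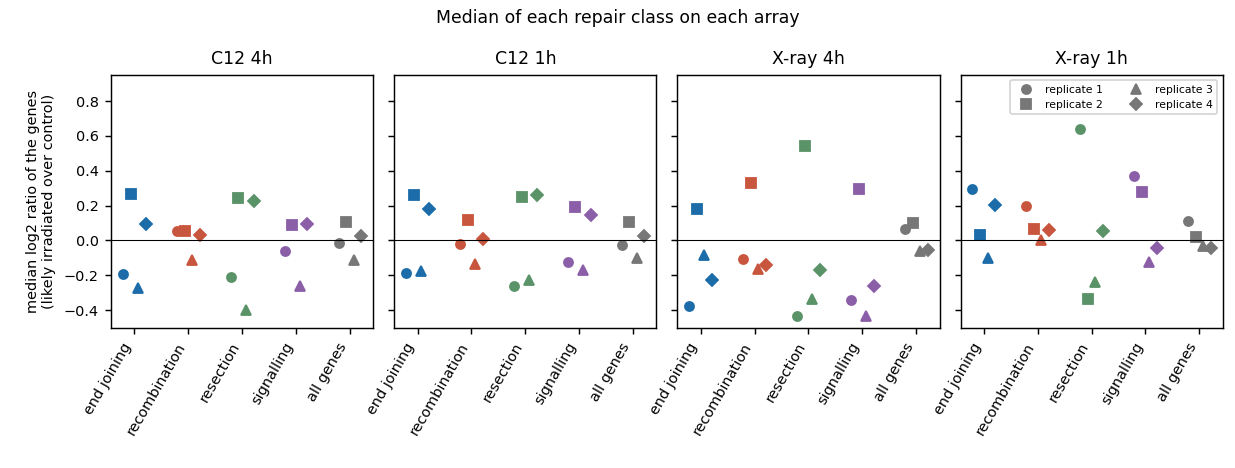
Median log2 ratio (likely irradiated over control) of the 7 end joining, 12 recombination, 4 resection and 14 signalling genes and of all 18334 genes on each array, with a panel per group and a marker shape per replicate. In X-ray 4h, replicate 2 lies above 0 in all 4 classes and replicates 1, 3 and 4 below, while in the other groups the replicates of a class fall on both sides of 0, except recombination in X-ray 1h, where all 4 are above 0 and replicate 3 lowest at 0.00.

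The rest of the pathway was taken from a list of 71 other break repair genes, of which 67 were measured. None of these rose or fell by limma's test in any of the 8 comparisons, with the shares of all genes as given above. At X-ray 4h 39 of 67 estimates were below 0, against 9118 of all 18334 genes, with a median of -0.06. The largest were -0.56 ± 0.28 for TIPIN, a replication fork protection factor, -0.48 ± 0.20 for UBE2T, the ubiquitin-conjugating enzyme of the Fanconi pathway, and -0.45 ± 0.16 for CDC25A, a phosphatase that activates cyclin-dependent kinases. Without X-ray 4h replicate 2, 2 of 67 fell, against 1.09% of all genes. These were UBE2T, by 0.81 ± 0.19 (limma adjusted p = 0.0376), and RAD18, a ubiquitin ligase of damage tolerance, by 0.64 ± 0.15 (0.0445). Without that array TIPIN had -0.86 ± 0.29 and CDC25A -0.51 ± 0.17. Of the 67 estimates 50 were then below 0, against 8790 of all 18334 genes, and the median was -0.24. The array medians of this list were -0.11, 0.31, -0.40 and -0.24 on X-ray 4h replicates 1 to 4, the same signs as those of the 39 genes. Beside these, the mitotic list, of 12 genes, had medians of -0.51, -0.25, -0.85 and -0.89. With all arrays 2 of 12 passed as lower, against 4 of all 18334 genes. Without replicate 2 it was 7 of 12, against 1.09% of all genes.

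Pairwise correlations of the 39 genes across arrays are given as a description without a test. Over the 8 X-ray arrays the median Pearson correlation of their 741 pairs was 0.260, against 0.028 over all gene pairs, and 28.1% of pairs exceeded 0.5, against 16.5%. Over the 8 C12 arrays the median was 0.263, against 0.102, and 44.8% exceeded 0.5, against 43.3%, which is nearly the share of all gene pairs. The points share arrays and dye orientation, and on C12 arrays the dye pattern enters these values.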

How the data were processed

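The authors deposited 1 log2 ratio per feature and array for 45220 features. limma is named, with no version, per the submitters' processing notes. Background correction, normalization, log base and direction are not stated there, and base 2 is an assumption from limma's convention. Values spanned -3.3842 to 2.9322, with 0 missing. Every array had an SD of 0.4142 or 0.4143 and a median between -0.0415 and -0.0391, so all arrays had nearly the same spread. Fold changes given here are on that deposited scale, and whether their sizes compare between C12 and X-rays was not tested. Sequencing depth does not apply to array ratios, and the number of arrays limits the precision.

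Features were named through the platform annotation: 31332 had 1 symbol, 93 several and 13795 none here. Entrez identifiers gave the current symbol of 31291 features. Features of a symbol were averaged, giving 18334 genes. Replicates 1 and 2 of each group were multiplied by -1, which equals the product of the labelled dye codes of both radiation qualities.

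Testing used limma 3.58.1 with statmod 1.5.0 in R 4.3.3: 4 group means and 1 dye coefficient per radiation quality over all 16 arrays, with 1 array weight per quality (2.49 for C12, 0.402 for X-rays), and Benjamini-Hochberg adjustment over all genes. Errors are standard errors unless named otherwise. A fit with 1 shared dye coefficient and equal weights was kept as an alternative only, because the dye pattern and the residual spread differed between the qualities. The fit was tested on simulated data. Fully described genes were those past the threshold, the 3 with the largest X-ray 4h estimate and the 2 with the largest C12 4h estimate per class, the 3 other pathway genes with the largest X-ray 4h estimate, and CDKN1A; others named were chosen after their values were seen. The genes and lists were chosen with earlier results of these data known. Alternatives were other sign readings, dye terms, weights, centring, feature medians, the compared groups only, a replicate block and leaving out each array. Whether replicate numbers pair the arrays was not settled. Residuals of the same number correlated between times with r from -0.312 to -0.136 for C12 and from -0.303 to 0.0617 for X-rays. Same-numbered arrays had the same labelled dye at both times, and the fit shares 1 dye coefficient between the times. The residuals are therefore tied to each other, and these r cannot decide on pairing.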

Additional observations from a re-analysis of the deposited data

Results flagged for a closer look

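In 80 checked groups of 4 arrays, 5 held an array far from the others of its group, all of them X-ray groups. Chance alone flags about 1 in 20 groups of independent values. After C12 the ratios of many genes alternated with the dye, which leaves no single array apart. The count of 5 can therefore not be set against that rate. The median of the 39 repair genes on X-ray 4h replicate 2 was 0.36, while the other 3 arrays lay between -0.34 and -0.23. CHEK1 stood at 0.37 on the same array. PRKDC stood at -0.38 on X-ray 4h replicate 1, RAD52 at -0.34 on X-ray 4h replicate 3 and POLQ at -0.66 on X-ray 1h replicate 3, each on the other side of 0 from the rest of its group. RNF8 was above 0 on all 4 C12 4h arrays and below 0 on all 4 X-ray 4h arrays, with a difference of 0.23 ± 0.16 (SE, n = 4 each). Its 2 features had means of 0.28 and -0.01 at C12 4h, so the sign there rests on 1 feature, and both were below 0 at X-ray 4h. That difference itself did not pass limma's test (adjusted p = 1).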

How the results depend on the processing

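Over 27 alternative settings, the count of repair genes passing moved only at X-ray 4h, to 9 lower with 1 weight per array, where 6.03% of all genes passed as lower and X-ray 4h replicates 1 to 4 had weights of 0.367, 0.134, 2.03 and 0.607, so that replicate 3 carried most of the weight. Those 9 were DCLRE1C, XRCC4, BARD1, RAD54B, NBN, CHEK1, CHEK2, TOPBP1 and RIF1, and 14 of the 67 other pathway genes passed as lower with them. Leaving out 1 array at a time gave 0 to 1, the 1 being BARD1 without X-ray 4h replicate 2. The median over the 39 genes then ran from -0.28 to -0.05 at X-ray 4h, -0.02 to 0.13 at X-ray 1h, -0.04 to 0.02 at C12 4h and 0.00 to 0.02 at C12 1h (lowest -0.000902). With the ratios as deposited, a setting that differs in the sign of replicates 1 and 2, it was -0.14 at X-ray 1h. With a replicate block (estimated correlation 0.173) 0 of the 39 genes passed in each comparison, and the 6 genes of all that passed at X-ray 1h became 0.

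The count over all genes at X-ray 4h depended on the setting, and the cause was not tested: 49 became 104 with 1 shared dye coefficient and equal weights, 221 with equal weights, 1502 with 1 weight per array, 83 with the compared groups only, 29 without a dye coefficient, and 0 with ratios as deposited or turned by the labelled dye alone. Without 1 of its own 4 arrays it was 3, 262, 0 and 2, in the order of replicates 1 to 4. The median of the 39 genes at X-ray 4h was -0.15 as deposited and 0.14 turned by the labelled dye.

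The direction rests on a reading of the dye codes, the dose is not known here, RNA was pooled, and probe brightness was not used.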
